A study of Rattus norvegicus with 210 samples.

Results

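The comparison covered 10 of the 210 libraries of the series: 5 from the mediobasal hypothalamus (MBH) of rats exposed to ketoconazole at 12 mg/kg bw/day (K12) and 5 from the MBH of control rats given the corn oil vehicle, all at postnatal day (PND) 22. The libraries were chosen by their labels alone. Ketoconazole (KTZ) is an imidazole antifungal that blocks cytochrome P450 enzymes, among them enzymes of steroid synthesis. The animals were female Sprague-Dawley rats whose dams were gavaged from gestation day 7 until birth and again from the day after birth until PND22, so that exposure ran through the placenta and the milk. Libraries of the MBH from rats of the same age at 3 and 6 mg/kg bw/day (K3 and K6) and from control and K12 rats at PND90, 5 in each group, served for comparison. Where stated, the other MBH groups of the series were used as well. These were groups given diethylstilbestrol at 3, 6 or 12 µg/kg bw/day (D3, D6 and D12), all groups at PND42, and K3 and K6 at PND90. The labels number the 5 libraries of a group without stating how rats were spread over litters, so that p-values measure the spread between these libraries. For the dissection of both hypothalamic regions the study names the lateral sulci, the optic chiasm and the mammillary bodies as landmarks.

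The MBH holds the arcuate, ventromedial and tuberomammillary nuclei. Arcuate neurons that make kisspeptin, neurokinin B and dynorphin (KNDy neurons) drive the pulses of gonadotropin-releasing hormone (GnRH) that start puberty, and other arcuate neurons (AgRP and POMC neurons) control feeding. These neurons read sex steroids and nutritional signals through nuclear and membrane receptors. Glial cells around them mature in the same weeks: oligodendrocyte precursors turn into myelinating oligodendrocytes while the animal approaches puberty.

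Reads counted on genes numbered 18459642 to 22522907 in the control libraries and 18658051 to 23513820 in the K12 libraries. Levels are CPM, a gene's reads per 1000000 reads counted in its library, and differences as log2 fold changes of K12 over control after TMM scaling, with the standard error (SE). Tests are edgeR's quasi-likelihood tests with Benjamini-Hochberg adjustment, two-sided, and a gene is called at an adjusted p under 0.05. The label of the tissue was checked with its own genes: Agrp, Pomc, Nr5a1, Hdc and Foxb1 were present in all 10 libraries, while Npy, another transcript of arcuate neurons, was listed at 0 reads in all 10.

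Libraries of the whole series differed in several of the genes described here in a way that did not follow the exposure labels alone. Npw, which encodes neuropeptide W, lay at 0.477 CPM or less in 80 of the 105 MBH libraries and at 1.26 CPM or more in the other 25, with no library between. The 25 libraries were the 5 controls at PND22, the 5 controls at PND90, 5 of D3 and 5 of D6 at PND90 (groups given 3 and 6 µg/kg bw/day of the synthetic estrogen diethylstilbestrol), 2 of D12 at PND90 and 3 labelled K12 at PND42. The controls at PND42 lay at 0 to 0.0446 CPM, as low as the K12 libraries at PND22. In these 25 libraries Qdpr lay between 96.9 and 120 CPM and Gpr17 between 83.8 and 136 CPM, against 94.1 to 550 CPM and 11.9 to 111 CPM in the other 80. Both inner edges of the 80 came from 1 library, K12 replicate 4 at PND42, with Qdpr at 94.1, Gpr17 at 111 and Npw at 0.0524 CPM. Without it the other 79 began at 166 CPM for Qdpr and ended at 59.3 CPM for Gpr17, so that in these 2 genes 4 of the 5 libraries labelled K12 at PND42 lay with the PND22 controls. At PND22 all 30 exposed MBH libraries, of either chemical and any dose, lay on the low side and all 5 controls on the high side, so that at this age exposure and this division of the libraries cannot be told apart. The empty range of Npw was chosen after the values were seen. Alox15 and Pnlip, described below, divided alike, with 24.4 to 117 and 30.7 to 53.4 CPM in the 25 libraries. In the 79 libraries they lay at 0.349 to 13 and 4.8 to 24.1 CPM. The PND42 controls lay on the K12 side of the PND22 controls in Alox15 (2.52 to 8.11 CPM), Grm3 (45.6 to 55) and Oxt (67.5 to 152). They did so too in Gabre (22.6 to 38.8) and Plagl1 (29.3 to 49.7), while in Prkcd (10.4 to 333) the groups overlapped.

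**Figure D1:**
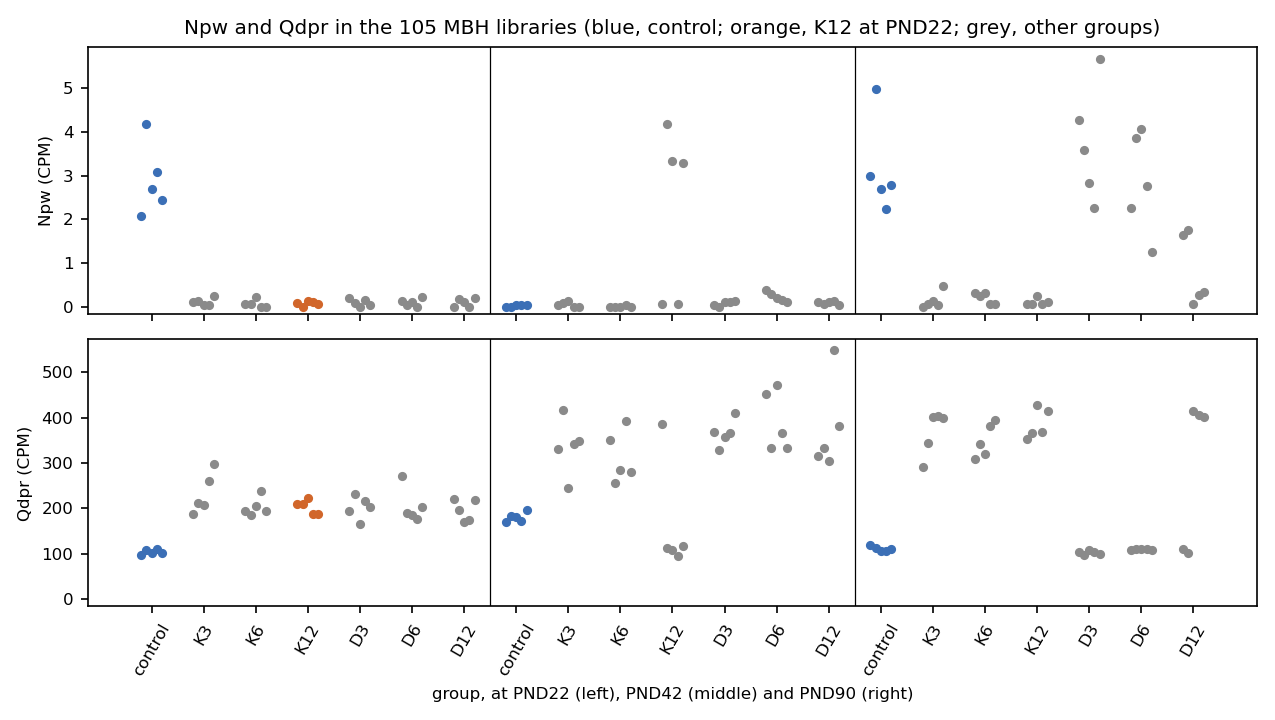
Levels of Npw (upper panel) and Qdpr (lower panel) in CPM, one point per library, in the 21 groups of 5 MBH libraries, ordered by age. At PND22 the 5 control libraries stand apart in both genes from all 30 exposed libraries, whereas at PND42 the controls lie with most exposed groups in Npw and 3 libraries labelled K12 lie at 3.28 to 4.18 CPM; in Qdpr a further K12 library, at 94.1 CPM, lies beside them.

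Of 14817 genes tested, 5529 (37.3%) were called in K12: 2695 (18.2%) were higher and 2834 (19.1%) lower than in control. The counts of each gene list below stand against these shares of genes higher and lower. With library totals in place of TMM scaling, 5655 genes were called and 36.5% of them were higher, against 48.7% after TMM scaling. Most changes were small. Of the called genes, 3581 changed by less than 0.5 on the log2 scale, 300 were higher by at least 1 and 207 lower by at least 1. The median log2 fold change of all genes tested was -0.01. A group of 5 lay wholly beyond the other in many genes. In 3653 genes (24.7%) all 5 K12 libraries lay on one side of all 5 control libraries, 1257 (8.48%) above and 2396 (16.2%) below. These counts, like each statement on overlap below, used CPM without TMM scaling. With library totals the median log2 fold change of all genes was -0.0689, so that the larger number below depends on the scaling. In one fit together with K3 and K6, 2100 genes were called, and 1675 in one fit of all 7 groups of this age.

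**Figure D2:**
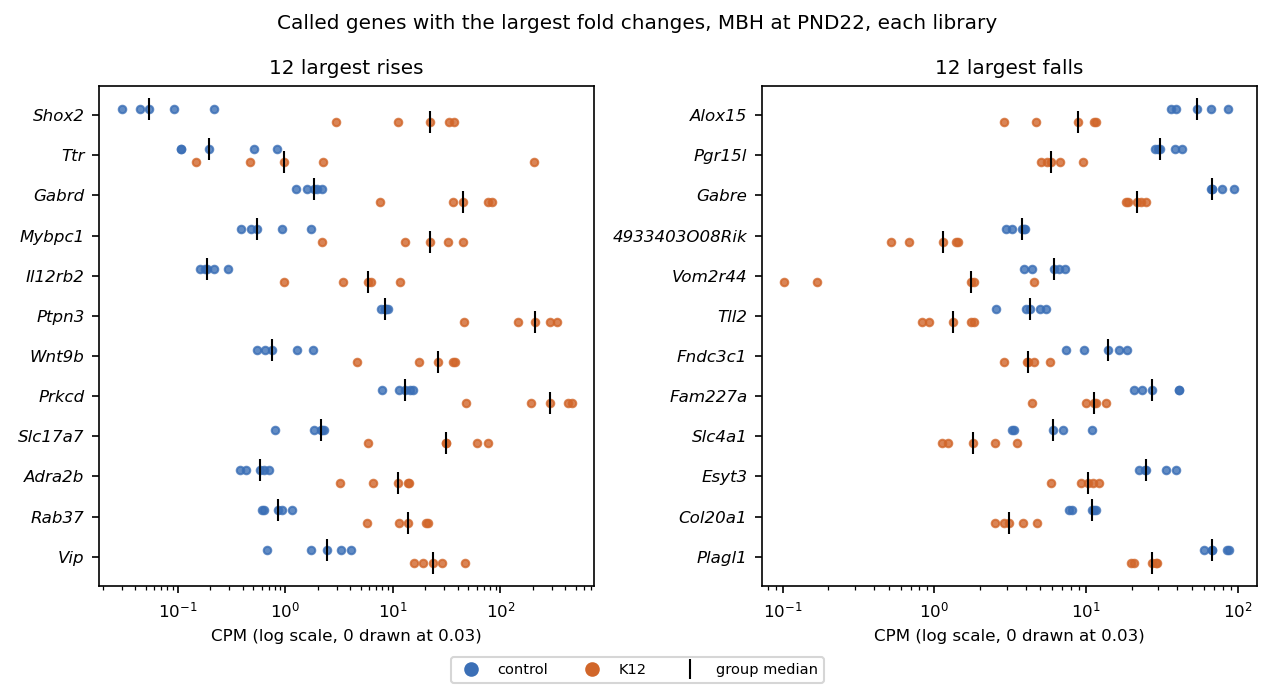
CPM of the 12 called genes with the largest rise and the 12 with the largest fall (named genes averaging log2 CPM 1 or more), on a log axis; blue points are the 5 control libraries, orange points the 5 K12 libraries and bars the group medians. The K12 libraries of Prkcd spread from 48.3 to 460 CPM, whereas those of Gabre lie between 18.5 and 25.1 CPM.

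Several of the largest rises were in genes known from thalamic neurons, which lie next to the hypothalamus. Prkcd (ENSRNOG00000016346), which encodes protein kinase C delta, was at 15.4, 11.4, 14.4, 7.96 and 13 CPM in the control libraries and at 191, 425, 291, 460 and 48.3 CPM in the K12 libraries. The lowest K12 library lay above the highest control library, and the K12 libraries spread far more than the controls. Its log2 fold change was 4.56 (SE 0.49, edgeR adjusted p = 5.51e-05). Ptpn3, a tyrosine phosphatase, went from 7.8 to 8.99 CPM in control to 146, 291, 208, 333 and 45.9 CPM in K12, and Tcf7l2, a transcription factor of the Wnt pathway, from 21.9 to 25.2 CPM to 85.9, 159, 157, 225 and 45.3 CPM. In all 3 genes replicate 5 was lowest and replicate 4 highest among the K12 libraries.

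Shox2, a homeobox factor of thalamic neurons, was close to absent in control, with 8 reads over all 5 libraries against 2232 in K12, a ratio of 270 (95% exact interval 137 to 627, counting error only). Its K12 libraries stood at 11.1, 33.4, 22.2, 36.9 and 2.95 CPM, again lowest in replicate 5. Gabrd encodes the delta subunit of extrasynaptic GABA-A receptors and Slc17a7 the vesicular glutamate transporter 1. Gabrd rose by 4.87 (SE 0.54) on the log2 scale, from at most 2.2 CPM in control to between 7.56 and 82.8 CPM, and Slc17a7 by 4.55 (SE 0.57), from at most 2.27 CPM to between 5.84 and 77.4 CPM. Mybpc1, Il12rb2, Wnt9b, Adra2b and Rab37 rose by 4.17 to 4.85 on the log2 scale. In all 5 genes K12 replicate 5 was the lowest K12 library and still lay above every control.

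Of the 12 tested genes of a thalamus list (Prkcd, Ptpn3, Plekhg1, Lef1, Tcf7l2, Synpo2, Ntng1 and others), 9 were higher and 0 lower, with a median log2 fold change of 1.85. The list was chosen with earlier results of these data known, and Prkcd and Ptpn3 are among the largest rises themselves. Its direction is therefore no independent evidence. The summed level of the list was 184 to 200 CPM in control and 763, 1430, 1120, 1700 and 350 CPM in the K12 libraries, all above control and farthest apart from each other in replicates 4 and 5. In tissue RNA, more cells of a type and more RNA per cell cannot be told apart. Of the defining genes of the neighbouring telencephalon, Neurod2, Tbr1 and Emx1 did not pass the filter on low counts, and the cortex list had 1 gene higher (Slc17a7) and 2 lower, Nrgn among them, of 8 tested. Of the 7 striatal genes, 0 were higher and Rgs9 was lower. Thalamic transcripts also varied within groups elsewhere in the series: Prkcd lay between 10.4 and 333 CPM in the controls at PND42 and between 9.97 and 323 CPM in K12 at PND90.

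K12 replicate 4 also had high summed levels of the choroid plexus and habenula lists. K6 replicate 4 did so too, with 441 CPM for the choroid plexus list and 204 CPM for the habenula list. Ttr, which encodes transthyretin and is the leading transcript of the choroid plexus, was at 2.25, 0.147, 0.468, 204 and 0.965 CPM in K12 and at 0.107 to 0.844 CPM in control, so the groups overlapped and the call (log2 fold change 6.83, SE 1.95, edgeR adjusted p = 0.015) rested on this library. Without it the log2 fold change was 1.44 (edgeR adjusted p = 0.131), against adjusted p-values of 0.00787 to 0.1 under the other alternatives. The summed choroid plexus list was 238 CPM in K12 replicate 4, most of it from Ttr (204 CPM), and 13.6 to 22.8 CPM in the other K12 libraries. The choroid plexus list had 2 genes higher (Ttr and Clic6) and 1 lower (Kl) of 7, while Folr1, Aqp1, Slc4a5 and Kcnj13 were not called. The summed habenula list was 239 CPM in K12 replicate 4 and 45 to 60.5 CPM in the other K12 libraries, with 2 genes higher and 0 lower of 5. Gpr151 and Pou4f1 of this list did not pass the filter on low counts. Chrna3, a nicotinic receptor subunit of habenular neurons, was at 9.56, 16.5, 13.7, 69.8 and 4.18 CPM in K12 against 2.22 to 6.48 CPM in control, with replicate 4 far above the rest and replicate 5 within the control range.

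Genes of the ventromedial nucleus were lower. Of 8 genes tested, 7 fell and 0 rose, with a median of -1 on the log2 scale. The study reported Nr5a1, Fezf1 and Npw as lower from these same libraries, so that the direction of the list is no independent evidence. Nr5a1 encodes steroidogenic factor 1, the factor that specifies this nucleus; it was at 13.5, 15, 9.84, 7.8 and 12.2 CPM in control and at 5.62, 4.35, 6.29, 2.02 and 6 CPM in K12. All 5 K12 libraries lay below all controls (log2 fold change -1.20, SE 0.25, edgeR adjusted p = 0.0028). Nkx2-1, a homeobox factor of the ventral hypothalamus, went from between 23.9 and 29.9 CPM to between 8.21 and 14.1 CPM (-1.16, SE 0.14), and Sox14 from between 3.15 and 6.23 CPM to between 1.12 and 2.34 CPM (-1.45, SE 0.25). Fezf1, a zinc finger factor, fell by 0.85 (SE 0.23) with overlapping groups. Replicates 2 and 4, which had the highest thalamic sums, were the lowest of the K12 libraries in both Nr5a1 and Nkx2-1. The part of the thalamic transcripts in these values was not tested.

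Npw (ENSRNOG00000012390), a further member of that list, had the most negative log2 fold change of all genes tested (-5.09, SE 0.39, edgeR adjusted p = 9.58e-06). Control libraries were at 2.08, 4.19, 2.69, 3.09 and 2.44 CPM and K12 libraries at 0.0865, 0, 0.128, 0.103 and 0.0536 CPM. There were 8 reads over all K12 libraries against 291 in control, a ratio of 0.0266 (95% exact interval 0.0114 to 0.0532, counting error only). All K12 libraries lay below all controls. The part of the thalamic transcripts in this fall was not tested.

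Other large falls were in genes of different roles. Gabre, which encodes the epsilon subunit of GABA-A receptors, was at 78.6, 95.5, 67.1, 67.7 and 67.6 CPM in control and at 21.9, 18.5, 23, 18.9 and 25.1 CPM in K12 (-1.75, SE 0.11, edgeR adjusted p = 1.26e-06). Plagl1, an imprinted zinc finger gene, went from between 59.9 and 87.8 CPM to between 19.8 and 29.3 CPM. Neither overlapped with control. Alox15, a lipoxygenase, fell by 2.78 (SE 0.34), from between 36.5 and 86 CPM to between 2.9 and 11.7 CPM. Its levels over the whole series are given above beside Npw. Pgr15l, an orphan receptor gene, fell by 2.32 (SE 0.17), from between 28.5 and 42.9 CPM to between 5.04 and 9.54 CPM. Esyt3, Fam227a, Fndc3c1, Col20a1, Tll2 and 4933403O08Rik had log2 fold changes from -1.49 to -1.72 with no overlap. Slc4a1, the anion exchanger of red blood cells, fell by 1.53 with overlapping groups, and the summed blood list was 681 to 2220 CPM in control and 705 to 1080 CPM in K12. Vom2r44, a member of a large vomeronasal receptor family whose reads can be split between copies, fell by 1.68 with overlapping groups. Its call was lost when any single library other than control replicate 2 or K12 replicate 1 was left out (edgeR adjusted p = 0.0513 to 0.083). It was also lost with DESeq2 (DESeq2 adjusted p = 0.0931) and in one fit of all 7 groups (edgeR adjusted p = 0.131).

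**Figure D3:**
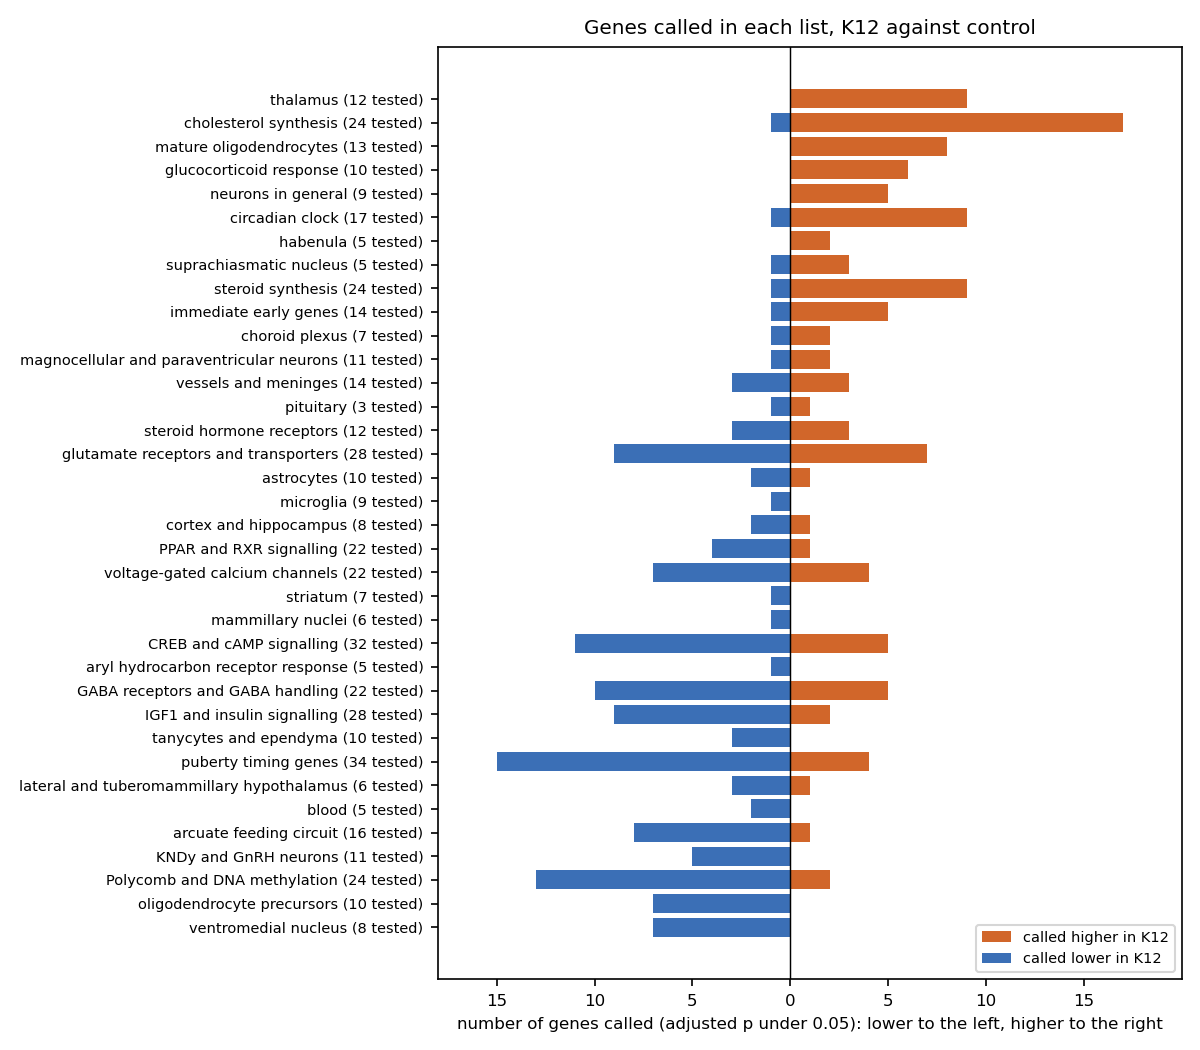
Number of genes called higher (orange, to the right) and lower (blue, to the left) in K12 in each of 36 gene lists, with the number of genes tested in parentheses. Cholesterol synthesis shows 17 higher and 1 lower of 24, and the ventromedial nucleus 0 higher and 7 lower of 8. Of all genes tested, 18.2% were called higher and 19.1% lower.

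Of 11 genes of KNDy and GnRH neurons and their inputs, 5 were lower (Pdyn, Oprk1, Npvf, Npffr1 and Gal) and 0 higher, with a median log2 fold change of -0.55. The 5 became 3 in one fit with K3 and K6 and 2 in one fit of all 7 groups. The summed list was 274 to 376 CPM in control and 186, 144, 192, 156 and 227 CPM in the K12 libraries. Like Pdyn, it was lowest in K12 replicates 2 and 4, which had the highest thalamic sums. The part of the thalamic transcripts in these values was not tested. The study reported Pdyn as lower from these libraries. Pdyn, which encodes the dynorphin precursor of KNDy and other neurons, went from 158, 199, 138, 138 and 136 CPM to 88.8, 63.9, 86.3, 65.3 and 111 CPM, without overlap (-0.83, SE 0.14, edgeR adjusted p = 0.000883). Its KNDy partners did not pass the test. Tac3, the neurokinin B gene, was at 14.1 to 17.8 CPM in control and 11.9 to 21 CPM in K12 (0.05, SE 0.14), and Kiss1 at 1.25 to 2.74 CPM and 0.414 to 2.04 CPM (-0.83, SE 0.36, edgeR adjusted p = 0.0834). Gnrh1 had few reads in this block, 0.379 to 1.83 CPM in control and 0.68 to 2.08 CPM in K12. Npvf, the gene of the RFamide peptide that restrains gonadotropin release, fell by 1.24 (SE 0.22), from between 37.7 and 53.5 CPM to between 11.2 and 26.5 CPM, and Gal, the galanin gene, by 0.80 (SE 0.13).

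Among 34 tested genes tied to early or late puberty in patients or to the migration of GnRH neurons, 4 were higher and 15 lower. The list holds genes that the study picked from these libraries, so that its direction is no independent evidence. Mkrn3, an imprinted gene that restrains GnRH release before puberty, was at 3.48, 3.38, 3.62, 3.3 and 2.31 CPM in control and at 1.38, 1.71, 1.74, 1.81 and 1.72 CPM in K12, without overlap (-0.88, SE 0.17). Igsf10, mutated in delayed puberty, fell by 1.08 (SE 0.15) and Sema3a, a guidance cue of GnRH axons, by 1.25 (SE 0.18). Nr0b1, which encodes DAX1, a partner of Nr5a1, fell by 1.32 (SE 0.28), from between 1.72 and 2.8 CPM to between 0.44 and 1.29 CPM. On the other side, Nsmf went from between 130 and 150 CPM to 303, 552, 359, 528 and 198 CPM and Sema7a from between 32.2 and 41.1 CPM to 80.3, 136, 91.1, 120 and 53.5 CPM. In both genes K12 replicate 5 was lowest and replicate 2 highest.

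Of 12 genes of steroid receptors and their relatives, 3 were lower (Esr1, Gper1 and Pgrmc1) and 3 higher, all 3 of them estrogen-related receptors, against 19.1% lower and 18.2% higher of all genes. The 3 lower became 1 in one fit with K3 and K6 and 0 in one fit of all 7 groups. Esr1 (ENSRNOG00000019358), which encodes estrogen receptor alpha, was at 20, 17.9, 16, 15.3 and 16.1 CPM in control and at 10, 6.4, 9.36, 6.46 and 8.41 CPM in K12, without overlap (-1.01, SE 0.13, edgeR adjusted p = 0.000157). Esr1 was lowest in K12 replicates 2 and 4, which had the highest thalamic sums. The part of the thalamic transcripts in its fall was not tested. The study reported Esr1 as lower and Esrra as higher from these libraries. Pgr, the progesterone receptor, did not pass the test, at -0.06 (SE 0.18). The estrogen-related receptors, which bind no estrogen, rose: Esrra by 0.64 (SE 0.15) and Esrrg by 0.75 (SE 0.15), both without overlap, and Esrrb by 1.25 (SE 0.38) with overlap.

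Enzymes that make and convert steroids rose more often than they fell, 9 higher and 1 lower of 24 tested, with a median of 0.20. The one that fell was Cyp19a1, the aromatase gene, from between 1.19 and 1.98 CPM to between 0.538 and 1.23 CPM (-0.86, SE 0.24), with overlapping groups. Srd5a1, which encodes steroid 5-alpha-reductase, went from 16.9, 16.2, 22.8, 24.7 and 20.2 CPM to 35, 40, 29.7, 32 and 35.2 CPM (0.83, SE 0.13, edgeR adjusted p = 0.000538). Hsd11b1, which regenerates active glucocorticoid, rose by 0.90 (SE 0.15). Cyp46a1, the neuronal enzyme that turns cholesterol into 24-hydroxycholesterol, went from between 76.4 and 89.6 CPM to 156, 224, 177, 246 and 102 CPM, highest in replicate 4 and lowest in replicate 5 as for Prkcd. Cyp17a1, a classical target of KTZ, did not pass the filter on low counts.

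In cholesterol synthesis 17 of 24 genes rose and 1 fell, with a median of 0.30 on the log2 scale. Msmo1 (ENSRNOG00000032297), a sterol demethylase, was at 113, 119, 138, 140 and 137 CPM in control and at 202, 201, 183, 194 and 186 CPM in K12. The K12 libraries lay close together and above all controls (0.64, SE 0.07, edgeR adjusted p = 9.85e-05). Cyp51, the lanosterol demethylase, whose fungal form is the target of azole drugs, rose by 0.36 (SE 0.08), Insig1, a sterol sensor, by 0.59 (SE 0.08) and Fdft1, which encodes squalene synthase, by 0.52 (SE 0.07). Hmgcs1, an early enzyme of the pathway, rose by 0.34 (SE 0.09), with overlapping groups. Sqle, Lss and Dhcr7, which encode other enzymes of the pathway, had log2 fold changes between -0.16 and 0.07 and were not called. The summed list was 2950 to 3380 CPM in control and 3600 to 3760 CPM in K12. With library totals in place of TMM scaling, 15 genes were higher and 1 lower.

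Oligodendrocytes need much sterol for myelin. Their genes differed at both stages of the lineage, and the study reported some of them, such as Car2 and Gpr17, from these libraries. Of 13 myelin genes, 8 were higher and 0 lower (median 0.52), and of 10 precursor genes 0 were higher and 7 lower (median -0.45). Car2, which encodes carbonic anhydrase 2, went from 117, 97.8, 144, 145 and 152 CPM to 296, 299, 290, 276 and 292 CPM (1.20, SE 0.11, edgeR adjusted p = 2.23e-05). Mog, a myelin surface protein, rose by 0.70 (SE 0.11) and Ermn, a cytoskeletal protein of myelinating cells, by 0.98 (SE 0.13), neither with overlap. Mbp, which encodes myelin basic protein, rose by 0.63 (SE 0.16) with overlapping groups. Gpr17 (ENSRNOG00000025745), a receptor of precursors about to differentiate, was at 104, 102, 118, 97.5 and 97.1 CPM in control and at 39.2, 36.7, 43.7, 48.2 and 42.9 CPM in K12 (-1.24, SE 0.07, edgeR adjusted p = 9.52e-07). Pdgfra, the growth factor receptor of precursors, went from between 141 and 182 CPM to between 107 and 115 CPM. Tnr, tenascin R, fell by 0.76 (SE 0.07) without overlap. Qdpr, a gene of tetrahydrobiopterin recycling, went from between 97.6 and 110 CPM to between 188 and 223 CPM. The ranges of Gpr17 and Qdpr over the series are given above beside Npw.

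Genes of the arcuate feeding circuit, several of them receptor genes, were lower in part: 8 of 16 fell and 1 rose, with a median of -0.56. The study reported Agrp, Mc3r, Npy2r and Ghr as lower from these libraries, so that this direction is no independent evidence. Agrp, which drives feeding, was at 14.6, 16.6, 15.8, 17.3 and 11.2 CPM in control and at 6.53, 7.09, 5.4, 3.36 and 7.93 CPM in K12, without overlap (-1.25, SE 0.20, edgeR adjusted p = 0.000488). Pomc, the precursor of melanocortins, did not pass the test (-0.53, SE 0.21, edgeR adjusted p = 0.0677). The peptide genes Cartpt (-0.006, SE 0.15) and Sst (-0.31, SE 0.17) of the same list were not called either. Prlr, the prolactin receptor, fell by 1.26 (SE 0.20), and the neuropeptide Y receptor gene Npy2r fell by 0.99 (SE 0.14), whereas Npy1r rose by 0.48 (SE 0.09), none with overlap. Hdc, the histamine-forming enzyme of the tuberomammillary nucleus, went from between 90.9 and 177 CPM to between 35.3 and 68.2 CPM. Hcrt, the orexin gene of the lateral hypothalamus, was at 23.5 to 39.8 CPM in control and 18.6 to 33 CPM in K12 and was not called. Of 6 genes of the lateral and tuberomammillary hypothalamus 3 were lower (Hdc, Npvf and Pdyn) and 1 was higher (Lhx9, at 13.3 CPM in K12 replicate 4 and 0.643 CPM in replicate 5). Npvf and Pdyn are counted in the list of KNDy and GnRH neurons as well. Pmch, a further gene of the lateral list, was not called (-0.16, SE 0.24). Of 6 mammillary factors 1 (Foxb1) was lower, by 0.75 (SE 0.17), and 0 were higher, against 19.1% and 18.2% of all genes.

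Magnocellular peptides went the other way. Oxt (ENSRNOG00000021225), the oxytocin gene, was at 9.31, 13.6, 7.66, 2.28 and 7.81 CPM in control and at 86.6, 58.2, 14.6, 60 and 73 CPM in K12. All K12 libraries lay above the controls, replicate 3 by a narrow margin (2.91, SE 0.44, edgeR adjusted p = 0.000407). Avp, the vasopressin gene, was at 8.78 to 42.6 CPM in control and at 95.1, 69.6, 35.9, 66.3 and 93.5 CPM in K12, and replicate 3 fell within the control range (1.58, SE 0.32). Of the other genes of the same nuclei, Crh and Trh, which encode the releasing hormones for corticotropin and thyrotropin, and Sim1 and Otp, which specify these neurons, were not called. The list had 2 higher and 1 lower (Avpr1a) of 11. Vip, a peptide of the suprachiasmatic nucleus and of other brain regions, went from 0.676 to 4.09 CPM to 23.7, 46.9, 19.2, 28.8 and 15.7 CPM, without overlap. The suprachiasmatic list had 3 genes higher (Vip, Rgs16 and Grp) and 1 lower (Six6) of 5. Tshb, the pituitary thyrotropin subunit, also made in the neighbouring pars tuberalis, rose by 1.27 (SE 0.26), from between 6.18 and 24 CPM to between 31.4 and 37.8 CPM. The pituitary list had 1 gene higher and 1 lower (Lhb) of 3, and Prl, Gh1 and Fshb did not pass the filter on low counts.

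Of 22 genes of GABA receptors and GABA handling, 5 were higher and 10 lower, against 18.2% and 19.1% of all genes. Gabra4 went from between 43.1 and 51.5 CPM to 113, 224, 141, 225 and 58.6 CPM. It is a partner of Gabrd in extrasynaptic receptors. Gabrq, a subunit of hypothalamic receptors like Gabre, fell by 1.12 (SE 0.15). Gabbr2, a GABA-B subunit, rose by 0.83 (SE 0.15), while Gad1, which encodes an enzyme of GABA synthesis, was not called (-0.19, SE 0.09). Of 28 glutamate receptor and transporter genes, 7 were higher and 9 lower, against the same 18.2% and 19.1%. Grm3, a metabotropic receptor of glia and neurons, was at 20.9, 22, 22.9, 27 and 24.9 CPM in control and at 61, 58.7, 51.5, 60.1 and 58 CPM in K12, with replicate 5 like the others (1.36, SE 0.09, edgeR adjusted p = 1.5e-06). Grm4 was at 36.5, 52.3, 52.8, 70.6 and 23.7 CPM in K12 and overlapped with control. Gria2, the AMPA receptor subunit that limits calcium entry, fell by 0.59 (SE 0.07). Voltage-gated calcium channels had 4 higher and 7 lower of 22, the former near the 18.2% of all genes. These receptor and channel lists cover topics the study reported from the same libraries, and their directions are no independent evidence.

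Chromatin regulators were mostly lower: of 24 Polycomb and DNA methylation genes, 13 fell and 2 rose, with a median of -0.29. The study picked part of these genes from the same libraries. Dnmt3a, the de novo DNA methyltransferase, was at 43.2, 47, 40.2, 36.5 and 41.2 CPM in control and at 20.6, 19.4, 22.6, 26.7 and 19.6 CPM in K12, without overlap (-0.87, SE 0.09, edgeR adjusted p = 4.35e-05). All 3 Tet genes, whose products oxidise methylcytosine, fell, Tet1 by 0.97 (SE 0.17) and Tet3 by 0.78 (SE 0.13). Of the histone methyltransferases of Polycomb repressive complex 2, Ezh2 fell by 0.59 (SE 0.14), while Ezh1 rose by 0.59 (SE 0.06). Cbx7 rose by 0.63 (SE 0.05), from between 45.6 and 51.4 CPM to between 65.4 and 77 CPM.

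The circadian clock turns on genes with an E-box (CACGTG) in their promoters through the factors CLOCK and BMAL1. Of 17 clock genes, 9 rose and 1 fell, with a median of 0.26. With library totals in place of TMM scaling, 6 rose and 1 fell. Ciart, a repressor in the loop, was at 7.43, 5.64, 5.15, 4.88 and 6.44 CPM in control and at 13.2, 13.5, 13.5, 14.8 and 10.6 CPM in K12 (1.21, SE 0.13, edgeR adjusted p = 5.08e-05). Dbp, a direct output, rose by 0.83 (SE 0.08) and Nr1d1, which encodes REV-ERB alpha, by 0.61 (SE 0.10), neither with overlap. Per3 fell by 0.46 (SE 0.10). The core genes Clock, Arntl (which encodes BMAL1), Per1, Per2 and Cry1 were not called. The hours at which the groups were dissected were not used here. Of 14 clock genes with promoters in the RefSeq table (GRCr8), 5 had an E-box within 250 bases before a start, on either strand, in 5 of their 16 promoters, against 5.59% of 33469 promoters. 3 of those whose genes rose are printed to show the element, each 60 bases on its gene's strand with the E-box in capitals. Ciart lies at chr2:186112307-186112366 (minus strand), Nr1d1 at chr10:84229613-84229672 (minus strand) and Tef, a PAR bZIP factor, at chr7:115206602-115206661 (plus strand).
Ciart: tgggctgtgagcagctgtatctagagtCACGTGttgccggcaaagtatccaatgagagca
Nr1d1: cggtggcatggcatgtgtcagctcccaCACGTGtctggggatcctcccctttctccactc
Tef: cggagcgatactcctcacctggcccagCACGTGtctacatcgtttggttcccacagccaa

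Immediate early genes, which neurons and glia switch on within minutes of activity, had 5 higher and 1 lower of 14 tested. Dusp1, a phosphatase that ends MAP kinase signalling, was at 13.3, 14.9, 15.6, 20.7 and 19.3 CPM in control and at 45.5, 61.9, 43.5, 49.5 and 20.2 CPM in K12, so that replicate 5 fell within the control range (1.46, SE 0.23, edgeR adjusted p = 0.000599). Fos rose by 0.84 (SE 0.27), from between 8.36 and 21.5 CPM to between 15.2 and 34 CPM, and Egr3 fell by 0.82 (SE 0.19). The call of Fos was lost without control replicate 1 or 3 or K12 replicate 1, 2 or 4 (edgeR adjusted p = 0.055 to 0.0667). Of this list 10 genes had a promoter in the RefSeq table and 3 of them (Btg2, Dusp1 and Ier2) held the cAMP response element TGACGTCA, against 1.59% of all promoters. The element of the 2 genes that were called is shown in capitals on the gene's strand: Btg2 at chr13:48087857-48087918 (minus strand) and Dusp1 at chr10:17184702-17184763 (plus strand), whose window also holds an E-box in lower case. The sterol regulatory element TCACNCCAC was found in 0 of 18 promoters of cholesterol synthesis genes, against 0.974% of all promoters.
Btg2: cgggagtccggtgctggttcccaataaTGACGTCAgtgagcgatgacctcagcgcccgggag
Dusp1: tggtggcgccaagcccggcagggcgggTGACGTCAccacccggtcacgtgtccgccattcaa

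Of 10 tested genes that respond to glucocorticoids, 6 were higher and 0 lower, with a median of 0.47. The 6 became 4 in one fit with K3 and K6 and 2 in one fit of all 7 groups. Fkbp5 (0.10, SE 0.13), Zbtb16 (0.07, SE 0.37), Pdk4 (0.51, SE 0.24) and Mt2A (0.16, SE 0.30) were not called. Sgk1, a kinase induced by corticosteroids, was at 29.7 to 50.1 CPM in control and at 50.3, 147, 81.4, 86.9 and 75 CPM in K12, where replicate 1 lay just above the highest control (1.19, SE 0.24). The receptor gene Nr3c1 was not called, at -0.03 on the log2 scale.

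Signalling lists that follow pathways reported by the study were split, and their directions are again no independent evidence. Of 32 genes of cAMP and CREB signalling, 5 were higher and 11 lower. Adcy1, a calcium-stimulated adenylyl cyclase, rose by 1.61 (SE 0.19), with 29.6, 37.2, 35, 55.8 and 22.2 CPM in K12 against 10.6 to 13.9 CPM in control. Prkacb, a catalytic subunit of protein kinase A, fell by 0.64 (SE 0.08), from between 267 and 315 CPM to between 146 and 199 CPM. Of 28 genes of IGF1 and insulin signalling, 2 were higher and 9 lower. Igfbp5, a binding protein, rose by 0.72 (SE 0.12), and Foxo1, a factor held back by insulin, fell by 0.59 (SE 0.15). Of 22 genes of PPAR and RXR signalling, 1 was higher and 4 were lower, the latter near the 19.1% of all genes. Rxrg, a retinoid X receptor, fell by 0.62 (SE 0.12), and Pparg and Fabp4 did not pass the filter. Of 5 genes of the aryl hydrocarbon receptor response, 1 (Arnt) was lower, against the same 19.1%. Cyp1a1, its classical target, did not pass the filter.

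General neuronal genes had 5 higher and 0 lower of 9, among them 3 neurofilament genes, with a median of 0.50. Nefm went from between 128 and 196 CPM to 252, 363, 337, 327 and 208 CPM. Astrocyte genes had 1 higher and 2 lower of 10, microglial genes 0 higher and 1 lower of 9, genes of vessels and meninges 3 higher and 3 lower of 14, and genes of tanycytes and ependyma 0 higher and 3 lower of 10. Of all genes tested, 18.2% were higher and 19.1% lower. Crym, a thyroid hormone-binding protein of tanycytes, fell by 0.81 (SE 0.12).

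The lists above depended on which libraries shared the estimate of the spread. In one fit with K3 and K6, the genes lower were 4 instead of 13 in the Polycomb list, 1 instead of 9 in IGF1 signalling, 2 instead of 7 in oligodendrocyte precursors, 8 instead of 15 in the puberty list and 4 instead of 11 in CREB signalling, and the immediate early genes higher were 1 instead of 5. The genes lower were 5 instead of 10 in the GABA list and 4 instead of 9 in the glutamate list, and the calcium channels had 1 higher and 2 lower. The thalamic genes higher were 10 instead of 9, and the ventromedial genes lower 6 instead of 7. In one fit of all 7 groups, 2 GABA genes and 3 glutamate genes were lower, 5 and 4 were higher, and the calcium channels had 0 higher and 1 lower. There, 10 cholesterol synthesis genes were higher, 3 arcuate and 4 ventromedial genes were lower, and the calls of Esr1 (edgeR adjusted p = 0.131), Nr5a1 (0.0641), Agrp (0.0612), Npvf (0.203), Prlr (0.172) and Tshb (0.245) were lost. The same fit lost the calls of Npy1r (edgeR adjusted p = 0.193), Gria2 (0.101), Foxb1 (0.117) and Hdc (0.0655). It also lost those of Fezf1 (0.0817), Esrra (0.0592), Tet1 (0.0539), Npy2r (0.0534) and Gabrq (0.0508). Both fits lost the calls of Mbp (edgeR adjusted p = 0.138 and 0.159), Pdgfra (0.064 and 0.072), Cyp19a1 (0.106 and 0.235), Dnmt3a (0.0533 and 0.0713), Foxo1 (0.116 and 0.179), Prkacb (0.0829 and 0.119), Egr3 (0.052 and 0.271), Per3 (0.059 and 0.0837) and Fos (0.0733 and 0.0742). Of 101 called genes followed through the alternatives, 14 lost the call in the former fit and 31 in the latter.

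The next question was whether the dose mattered. K12 was set against K6 and K3 of the same age. Of 14672 genes against K6 and 14700 against K3, edgeR called 0 and 0, with 600 and 2557 genes at an unadjusted p under 0.05. Without any difference a share of about 0.05 would lie there, and the 600 were fewer and the 2557 more than that. DESeq2 called 0 and 24. Leaving out single libraries moved the 600 to between 351 (without K12 replicate 3) and 1313 (without K6 replicate 5), and the 2557 to between 1041 (without K3 replicate 4) and 4614 (without K3 replicate 1). K3 replicates 4 and 5 stood apart from the other K3 libraries, with summed myelin lists of 41800 and 43000 CPM against 21200 to 30100 CPM and Gpr17 at 16.6 and 14.2 CPM against 35.2 to 44.8 CPM. Without K3 replicate 5 the count was 1193. For Gpr17 the difference between K12 and K6 was 0.11 on the log2 scale (95% interval -0.09 to 0.31), for Msmo1 0.01 (-0.15 to 0.16), for Esr1 -0.34 (-0.84 to 0.16), for Oxt -0.54 (-1.28 to 0.20) and for Prkcd 0.19 (-0.98 to 1.36). These intervals leave differences of 0.31 or less for Gpr17 and of 0.16 or less for Msmo1 but up to 1.36 for Prkcd. Against K3, the interval of Oxt ran from -2.20 to -0.30 (difference -1.25, edgeR adjusted p = 0.285) and that of Pomc from -1.30 to -0.15 (-0.72). Oxt was at 127 ± 45.1 CPM in K3, 85.1 ± 9.28 CPM in K6, 58.5 ± 27.1 CPM in K12 and 8.14 ± 4.07 CPM in control (SD, n = 5). With library totals in place of TMM scaling the median difference of all genes between K12 and K3 was 0.109.

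**Figure D4:**
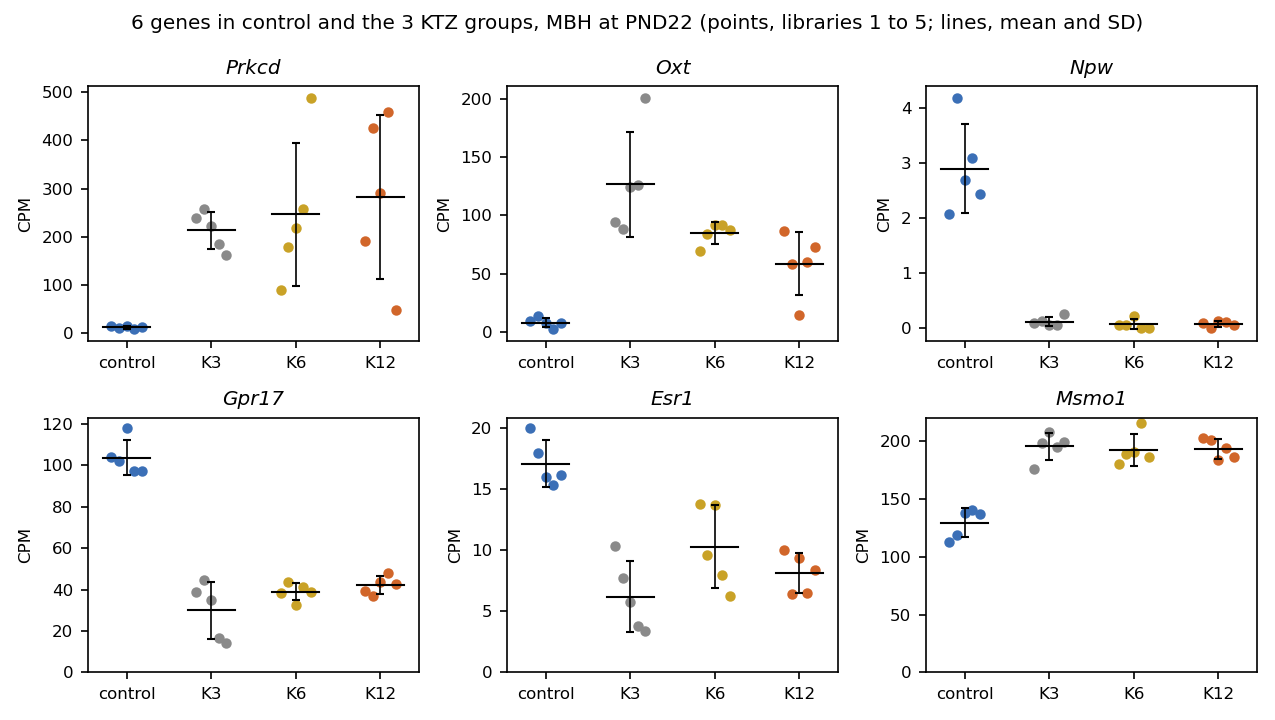
CPM of 6 genes in each library of control, K3, K6 and K12 in the MBH at PND22; lines show the mean and error bars the SD of 5 libraries. Mean Oxt is 8.14 CPM in control and 127, 85.1 and 58.5 CPM in K3, K6 and K12, and Prkcd spreads from 48.3 to 460 CPM within K12.

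Against K6 the genes with the smallest p-values were Ap1s3, Mvb12b, Mad2l1, Caskin2, Pbx3, Gtpbp3, Myo18b and Zfp777. Mvb12b, a subunit of the endosomal sorting complex ESCRT-I, was 0.36 higher in K12 than in K6 (SE 0.09, edgeR adjusted p = 0.912) and Ap1s3, an adaptor subunit, 0.72 lower (SE 0.17). Against K3 they were Crabp1, Arid3b, Dnajc1, Chd1l, Hspb1, Gadd45a, Hsp90aa1 and Gpr157. Crabp1, which binds retinoic acid, was 0.97 lower in K12 than in K3 (SE 0.18, edgeR adjusted p = 0.285), and Arid3b, a DNA-binding protein, 0.79 higher (SE 0.16).

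Whether the effect of K12 was the same in adult rats was tested as the interaction of age and exposure over the control and K12 libraries of PND22 and PND90. It was called for 517 of 15133 genes (3.42%), 310 (2.05%) with a higher and 207 (1.37%) with a lower effect at PND22. With library totals in place of TMM scaling, 48.5% of 536 genes had a higher effect at PND22, against 60% after TMM scaling. The effect had opposite signs at the 2 ages in 301 of them. In the other 216 it had the same sign, larger at PND90 in 148 and smaller in 68. The count ranged from 216 (without K12 replicate 2 at PND90) to 1267 (without K12 replicate 5 at PND22) when single libraries were left out, and it was 970 with DESeq2.

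Of the 8 genes with the smallest p-values, Gpr17 and Ugt8 belong to the precursor and myelin lists. Gpr17 was lower at both ages but more so at PND90: -1.23 (SE 0.08) at PND22 and -2.33 (SE 0.08) at PND90, with 106 to 136 CPM in control and 21.5 to 26 CPM in K12 at the later age (difference of effects 1.10, SE 0.11, edgeR adjusted p = 2.85e-05). Ugt8, which makes the galactolipids of myelin, had an effect of -0.03 (SE 0.13) at PND22, with 299 to 528 CPM in control and 349 to 446 CPM in K12, and of -1.58 (SE 0.14) at PND90, with 404 to 605 CPM in control and 139 to 172 CPM in K12. Serinc5, a membrane protein of myelin-forming cells, and Sirt2, a deacetylase of oligodendrocytes, had effects of -0.04 (SE 0.06) and -0.41 (SE 0.08) at PND22 and of -0.74 (SE 0.06) and -1.23 (SE 0.08) at PND90. Qdpr was higher at both ages, by 1.04 (SE 0.07) and 1.83 (SE 0.07). Pnlip, a pancreatic lipase gene, was lower at both, by -1.28 (SE 0.13) and -2.75 (SE 0.15).

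Effects of opposite sign were seen in Stra6, the membrane receptor for retinol-binding protein. It was at 14.2 to 20.9 CPM in control and 7.96 to 12.4 CPM in K12 at PND22, and at 6.38 to 12.8 CPM in control and 16.4 to 29.8 CPM in K12 at PND90, and the groups did not overlap at either age (difference of effects -2.06, SE 0.24, edgeR adjusted p = 0.000184). Fndc3c1 had effects of -1.54 (SE 0.28) and 1.35 (SE 0.28). Esr1 had an effect of -0.996 (SE 0.16) at PND22 and of 0.27 (SE 0.16) at PND90, a difference that was called (edgeR adjusted p = 0.00481). For Pomc, the effects were -0.51 (SE 0.21) and 1.12 (SE 0.21, edgeR adjusted p = 0.00596 for the difference). The effects on Npw (-5.07 and -4.83) did not pass the test of a difference, whose 95% interval ran from -1.66 to 1.18 on the log2 scale, nor did those on Prkcd (4.58 and 2.51), Oxt (2.92 and 1.30) and Msmo1 (0.65 and 0.43).

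**Figure D5:**
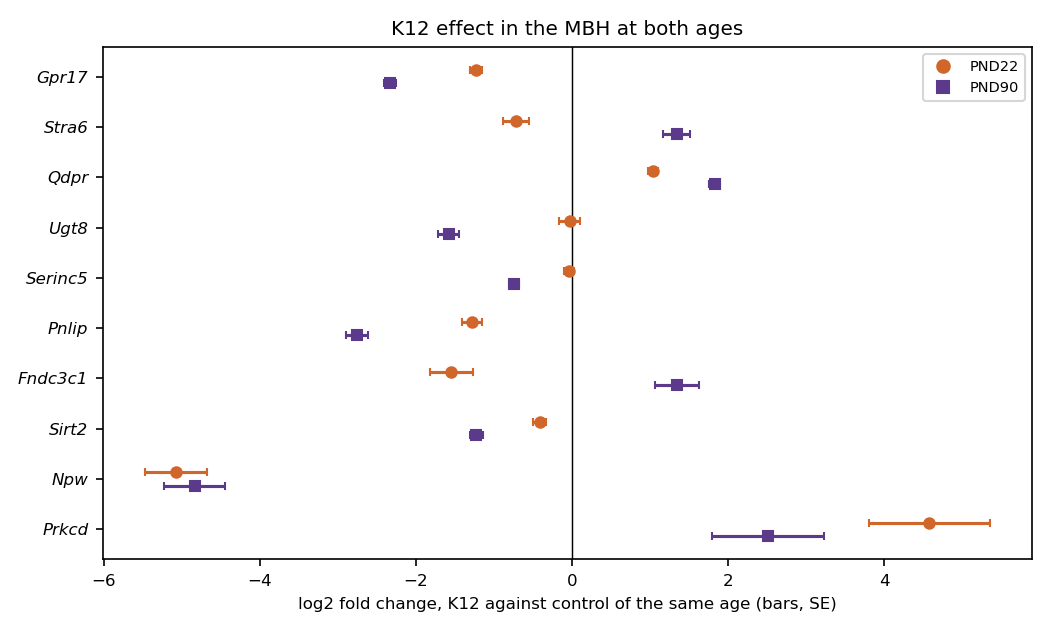
Log2 fold change of K12 against control at PND22 (orange circles) and PND90 (violet squares) with SE bars, from one fit over 20 libraries, for the 8 genes with the smallest p-values in the test of age and for Npw and Prkcd. Stra6 and Fndc3c1 lie on opposite sides of 0 at the 2 ages, and Gpr17 lies at -1.23 and -2.33.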

How the data were processed

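The deposited file holds raw counts of reads per gene, which the authors made from stranded mRNA libraries with STAR and featureCounts on Rnor_6.0; the strand setting and the treatment of reads with several matches are not given in the sources used here. The table lists 32883 genes, of which 396 have no symbol. Libraries were grouped by their labels, 5 per group. The test of the counts was that of edgeR 4.0.16 under R 4.3.3 (TMM scaling, filterByExpr at a minimum count of 10, quasi-likelihood test, Benjamini-Hochberg adjustment over all genes tested), and DESeq2 1.42.0 served as an alternative. Other alternatives were size factors, library totals, no filter, a minimum count of 50, a replicate block, larger fits and leaving out each library. Scripts were tested on simulated data. Within control, K12, K6 and K3 at PND22, no 2 libraries of a group were alike (chi-square per degree of freedom at least 7.49). The other groups were not checked in this way. The members and the 36 lists were chosen with earlier results of these data known. Named genes were the 12 largest rises and falls among called genes that have a symbol and average log2 CPM 1 or more, list members, and the 8 smallest p-values of each further comparison. Replicate numbers did not pair the libraries. Columns that belong to no sample numbered 0. Precision was limited by 5 libraries per group. Single values of some list members are not reported here.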

Additional observations from a re-analysis of the deposited data

Results flagged for a closer look

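Among 226 groups of 5 libraries looked at in 113 genes, 9 held a library far from the others by Dixon's criterion (0.71), where chance flags about 1 in 20 groups. In K12 replicate 4, Ttr was at 204 CPM and Chrna3 at 69.8 CPM. In K12 replicate 2, Hsd11b1 was at 32.7 CPM and Ugt8 at 446 CPM. In control replicate 2, Gal was at 55.6 CPM and Enpp6, low, at 20 CPM. Plekhg1 was at 25.9 CPM in control replicate 3. Mkrn3 was low in control replicate 5, at 2.31 CPM, and in K12 replicate 1, at 1.38 CPM, so its groups still did not overlap.

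The effect of K12 differed between PND22 and PND90 in 517 genes by the test of the interaction. The effect at PND22 minus the effect at PND90, on the log2 scale, was 1.10 for Gpr17, -2.06 for Stra6, -0.79 for Qdpr, 1.55 for Ugt8, 0.70 for Serinc5, 1.48 for Pnlip, -2.89 for Fndc3c1 and 0.82 for Sirt2. Different rats were used at the 2 ages, and both control groups lie on the high side of the division of libraries by Npw.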

How the results depend on the processing

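The 5529 genes called in K12 against control became 2100 in one fit with the other KTZ groups and 1675 in one fit of all 7 groups; 0 of the calls changed sign under any alternative. Leaving out single libraries gave 4390 to 5802 calls, and the other alternatives without a block 5135 to 5872. With the replicate number as a block, 4673 genes were called against control, 0 against K6, 0 against K3 and 321 in the test of age; same-numbered K12 and control libraries correlated at -0.0292 to 0.14, with 1 of 5 over 0.1 and 0 closest to their own number. Against K6, leaving out single libraries gave 0 to 1 calls, and against K3 also 0 to 1, with 24 by DESeq2. The 517 genes of the test of age became 970 with DESeq2 and 216 to 1267 when single libraries were left out. The counts were 268 and 258 without control replicates 1 and 2 at PND22, 240, 269 and 1267 without K12 replicates 2, 4 and 5 at PND22, 222 and 230 without control replicates 1 and 5 at PND90, and 221, 216 and 847 without K12 replicates 1, 2 and 5 at PND90. The cause was not tested. Of the named genes, only uncalled ones changed sign: Tac3 was at -0.00635 with library totals and ranged from -0.0873 (without K12 replicate 4) to 0.128 without single libraries, Pgr ranged from -0.221 to 0.0405, with 0.00276 without control replicate 4 and 0.0405 and 0.0367 without K12 replicates 1 and 2, and Ugt8 from -0.122 to 0.0985, with 0.0985 and 0.0028 without control replicates 4 and 5. Over all named genes and alternatives, 1924 values kept direction and side of the threshold, 82 lost the call and 10 gained one.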
